A study of Mus musculus with 6 samples.

Results

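The 100 features described here were ranked by how much more abundant they were in Avp+ neurons of the maturing mouse suprachiasmatic nucleus (SCN) than in any other cell cluster. A feature is 1 row of the count tables, of which there are 32285. UMIs, which are the counted RNA molecules, were summed per row over the annotated nuclei of each cluster at postnatal day (PND) 10 and PND30, and were scaled to a total of 1000000 per cluster (counts per 1000000, CPM). Among the 3909 features with at least 50 CPM in Avp+ neurons, those with the largest ratio of Avp+ neurons to the highest of the other 8 clusters were selected on this ratio, with 5 CPM added on both sides. The ratio chose the members, so it is given as a description with no test. The rows carry no gene name in the files used here, so each feature is called by its rank, and neither the identity of a feature nor the label of a cluster could be checked against marker genes.

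The SCN is the central circadian clock of mammals and receives light information from the retina. Its neurons are commonly divided into a shell, where many cells make arginine vasopressin (Avp), and a core, where many cells make vasoactive intestinal peptide (Vip). Avp neurons are known for sending timing signals to other brain areas and for the coupling of cells within the clock.

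Nuclei were isolated from SCN tissue dissected from wild-type C57BL6/J mice, offspring of mothers kept in a light/dark cycle, and sampled early in the light phase. Each stage was a pool of 10 fetuses or pups, 1 male and 1 female from each of several mothers. There was 1 library at gestational day (GD) 17.5, 1 at PND2, 2 at PND10 and 2 at PND30, and no treatment was applied. Per the study's methods, library preparation and sequencing were done again for PND10 and PND30 to recover more nuclei. The sources used here do not say whether the repeat used other animals, so p-values measure only the spread between these libraries, which may be technical.

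The authors' annotation lists 22796 nuclei in 13 clusters, and 22790 were placed in a library by their barcode. The libraries held between 771 and 5468 placed nuclei with a median of 3144 to 12106 UMIs, and any pair of libraries shared at most 9 nuclear barcodes. Avp+ neurons comprised 346 and 1555 nuclei at PND10 and 350 and 1268 at PND30, with 20810796 UMIs in all. At GD17.5 only 8 nuclei, and at PND2 only 46, were annotated as Avp+. Most neurons of these stages belonged to a cluster of early SCN neurons, with 4048 nuclei at GD17.5 and 3315 at PND2, and no nucleus of PND10 or PND30. Cck+ neurons numbered 21 nuclei at PND10 and 1827 at PND30, and Nms+ neurons 5 and 664, so both served as comparison clusters almost only through PND30.

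Enrichment in Avp+ neurons was steep for a few features and shallow for most. Rank 1 reached 3018 CPM in Avp+ neurons against 794 CPM in Cck+ neurons, the next highest cluster, a ratio of 3.78. Ranks 2 to 5 had ratios of 2.68, 2.33, 2.28 and 2.02, and rank 10 had 1.72. Only these 5 features were at 2 or more, while 16 were at 1.5 or more and 54 at 1.2 or more. At the limit, ranks 98, 99 and 100 all had a ratio of 1.13, and so had the next 3 features outside the list, so the list has no natural end there. Of all 3909 features, 316 were higher in Avp+ neurons than in every other cluster of the rule. The label "most specific" therefore describes an order more than an exclusive expression, and the members are called Avp+-ranked features below.

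**Figure D1:**
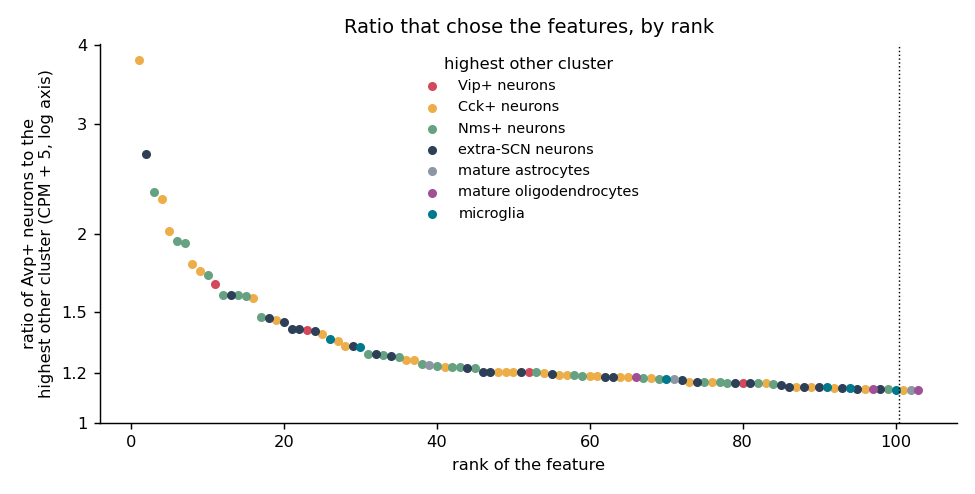
Ratio of CPM + 5 in Avp+ neurons to that of the highest other cluster (log axis) against the rank of the feature, at PND10 and PND30, coloured by which other cluster was highest. The ratio falls from 3.78 at rank 1 to 1.13 at rank 100 (dotted line) without a step.

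For most members the highest other cluster was a neuronal one. It was Cck+ neurons for 31 members (13.05% of all 3909 features), extra-SCN neurons for 28 (17.5%), Nms+ neurons for 27 (10.9%) and Vip+ neurons for 4 (6.50%). Microglia were highest for 6 members (21.6%), and mature astrocytes (10.6%) and mature oligodendrocytes (13.1%) for 2 each. Together the 100 features made up 3.75% of the UMIs of Avp+ neurons. The same features held 2.28% of the UMIs in Cck+, 2.20% in Nms+, 1.97% in extra-SCN and 1.68% in Vip+ neurons. They held 1.51% in microglia, close to the share in Vip+ neurons, 1.06% in NG2 cells/OPCs, 0.851% in mature astrocytes and 0.766% in mature oligodendrocytes. Of the 3 small clusters that the rule did not use, unidentified neurons were above Avp+ neurons for 4 members (32.2% of all features), immature astrocytes/ependymal cells for 9 (43.3%) and endothelial cells for 16 (39.6%). Endothelial cells had at most 3 nuclei in any later library, so their levels rest on few UMIs. Rank 14 measured 3627 CPM in immature astrocytes/ependymal cells, against 1015 CPM in Avp+ neurons. Rank 12, with 2543 CPM in Avp+ neurons, and rank 27, with 2519 CPM, were the most abundant members after rank 1.

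The level of rank 1 was spread over a larger share of Avp+ nuclei than of extra-SCN nuclei. The rule chose rank 1 on its summed level in these same nuclei, so its spread is given as a description only. In the first PND10 library, rank 1 had 1440 CPM in the 421 extra-SCN nuclei, of which 3 nuclei held 50% of its UMIs and 1 nucleus held 1645 UMIs. Without the 14 extra-SCN nuclei that had at least 10 UMIs of rank 1, this value was 53.2 CPM. In the second PND10 library, 2 of 1243 extra-SCN nuclei held 50% of the UMIs of rank 1, and its level fell from 485 CPM to 76.5 CPM without the 15 nuclei of at least 10 UMIs. In Avp+ neurons, 38 of 346 nuclei and 170 of 1555 nuclei held the same share of its UMIs in these libraries. At least 10 UMIs of rank 1 were in 140 of the 346 and 650 of the 1555 Avp+ nuclei. The Avp+ level without those nuclei is not given, so the trimmed extra-SCN levels have no like value beside them. Over the 4 later libraries, 40.3% of the 3519 Avp+ nuclei had at least 10 UMIs of rank 1. So did 9.20% of the 1848 Cck+, 5.98% of the 117 microglial, 2.00% of the 2149 extra-SCN, 1.49% of the 669 Nms+ and 0.863% of the 1969 Vip+ nuclei, shares that also depend on the depth of each nucleus. In PND30 replicate 1, microglia reached 2796 CPM of rank 1, but 170 of their 178 UMIs were in 1 of 8 nuclei. In PND10 replicate 2, Cck+ neurons reached 1929 CPM, and 6 of their 20 nuclei had at least 10 UMIs of rank 1.

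Before birth, a smaller share of the Avp+-ranked features than of all features reached 50 CPM in early SCN neurons. At GD17.5, 62 of the 100 were at 50 CPM or more, against 83.3% of all 3909 features. A further 7 reached this level first at PND2 (4.04% of all features), and 31 stayed below it at both stages (12.6%). The 62 depend on the limits set: 88 members were at 20 CPM or more at GD17.5, and 42 at 100 CPM or more. Lists chosen with a minimum of 20 CPM, with a minimum of 100 CPM, or without Cck+ and Nms+ neurons had 47, 83 and 43 members at 50 CPM or more. Shares of all features at these other settings are not given, so these counts show only how the 62 moves. At PND2, 66 members were at 50 CPM or more, against 82.8% of all features. The median of the 100 members was 76.9 CPM at GD17.5 and 77.7 CPM at PND2, against 98.5 and 95.7 CPM over all features. With 1 library at each stage, these differences have no replicate check, and the intervals given are exact 95% Poisson intervals that cover counting error only. Since fewer expressing nuclei and less RNA per nucleus give the same summed level, the number of nuclei behind a level is given where it matters.

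Between GD17.5 and PND2 the members as a whole hardly moved. The median log2 ratio of PND2 to GD17.5 was 0.03 for the members and -0.04 over all features. At least 2-fold higher at PND2 were 6 members, where 2.02% of all features were past this limit, and 1 member was at least 2-fold lower (0.844% of all features). The 6 were ranks 1, 2, 34, 5, 22 and 18, in order of their ratio, and the lower 1 was rank 35, with 20.1 CPM at GD17.5 and 5.31 CPM at PND2. Among members that reached 50 CPM at either stage, the smallest ratios were 0.591 for rank 32, 0.603 for rank 17 and 0.696 for rank 94. Rank 32 measured 82.7 CPM at GD17.5 and 46.8 CPM at PND2, and was among 3 members that were at 50 CPM or more at GD17.5 but not at PND2 (4.53% of all features).

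Rank 1 stood apart from the other members. It measured 2.62 CPM (2.03 to 3.32) in early SCN neurons at GD17.5 and 73.8 CPM (70.0 to 77.7) at PND2, a ratio of 10.3 with 5 CPM added. In Avp+ neurons its level was 1838 and 3362 CPM at PND10 and 3576 and 2727 CPM at PND30. Its late level was 38.4-fold above early neurons at PND2, and no other member was 10-fold above them at both early stages. The level at PND2 came from very few nuclei. Of the 1431 UMIs of rank 1, 50% were in 4 of the 3315 early nuclei, 1 nucleus held 257, and 371 of the 442 nuclei with any UMI had a single one. Without the 12 nuclei of at least 10 UMIs, early SCN neurons were at 28.0 CPM, next to 25.1 CPM in immature astrocytes/ependymal cells and, leaving out their 1 such nucleus, 26.4 CPM in NG2 cells/OPCs. After thinning each nucleus to 1500 UMIs, 4.94% of early neurons had a UMI of rank 1 at PND2, against 5.33% of immature astrocytes/ependymal cells and 3.87% of NG2 cells/OPCs. Without thinning the shares were 13.3%, 12.5% and 12.6%, at median depths of 5084, 4517.5 and 4584 UMIs. Outside these 12 nuclei the level of rank 1 in early neurons was thus close to that in the glia of the same library, and its level above 50 CPM rested on those 12. In the barcodes of this library outside the annotation rank 1 measured 179 CPM, and the part of such RNA in its signal was not tested.

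No other member was as uneven over early nuclei. At PND2 the 10 highest nuclei held 60.7% of the UMIs of rank 1, and a median of 3.76% over the 100 members. Rank 25, the next most uneven, had 22% of only 100 UMIs in its 10 highest nuclei. By median over members, 50% of the UMIs were held by 313.5 nuclei at PND2 and by 349 at GD17.5.

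**Figure D2:**
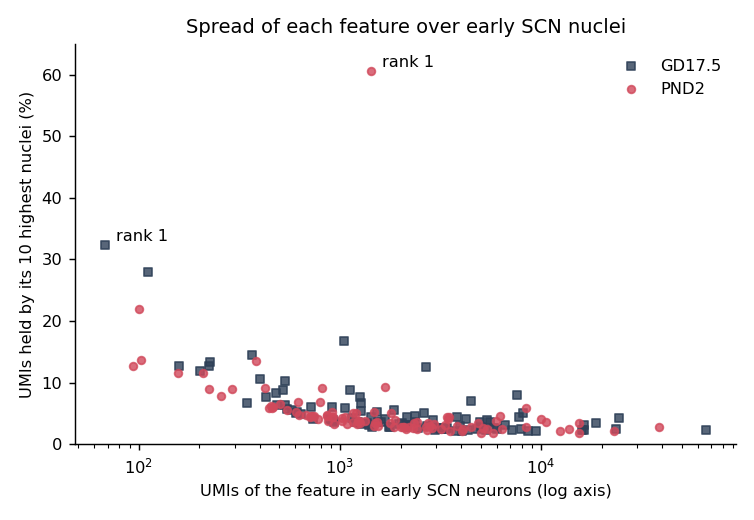
Share of a feature's UMIs that its 10 highest nuclei held (y, percent) against its UMIs in early SCN neurons (x, log axis), for the 100 features at GD17.5 (squares) and PND2 (circles). Rank 1 at PND2 lies at 60.7%, away from features with a similar number of UMIs.

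Rank 2 was low at GD17.5 and spread over many nuclei at PND2. It measured 20.5 CPM (18.8 to 22.3) and 76.5 CPM (72.6 to 80.5), a ratio of 3.19. At PND2, 946 of 3315 early nuclei had a UMI, and 254 nuclei held 50% of them. After thinning, 9.12% of early neurons had a UMI of rank 2, above 3.04% in immature astrocytes/ependymal cells and 2.21% in NG2 cells/OPCs. Its levels were 18.9 and 22.8 CPM in these glial clusters. In Avp+ neurons rank 2 reached 316 and 388 CPM at PND10 and 659 and 429 CPM at PND30. Of the third member first present at PND2 by rank, rank 18, the values were 40.4 CPM (38.0 to 42.9) and 86.4 CPM (82.3 to 90.7). Rank 22 measured 48.7 CPM (46.0 to 51.4) and 124 CPM (119 to 129), just below 50 CPM before birth.

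Ranks 3, 4 and 5 were the best-ranked members that stayed below 50 CPM at both early stages. Rank 3 measured 6.08 CPM (5.17 to 7.11) at GD17.5 and 8.04 CPM (6.83 to 9.41) at PND2, and between 86.4 and 154 CPM in the Avp+ neurons of the later libraries. Immature astrocytes/ependymal cells, at 17.6 and 16.5 CPM, were above early neurons for rank 3 at both stages. Rank 4 measured 49.1 CPM (46.4 to 51.9) and 31.9 CPM (29.4 to 34.5), so it missed the limit at GD17.5 by less than its counting error. Rank 5 measured 14.1 CPM (12.6 to 15.6) and 41.9 CPM (39.1 to 44.9). Ranks 8, 9 and 10 were the best-ranked members present at GD17.5. Rank 8 measured 299 CPM at GD17.5 and 435 CPM at PND2, rank 9 measured 100.3 and 142 CPM, and rank 10 measured 611 and 792 CPM. All 3 were at least 2-fold higher in late Avp+ neurons than at either early stage.

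The distance to the later Avp+ neurons was larger for the members than for other features, which the rule favoured since it used the late level. Late Avp+ neurons were at least 2-fold above early neurons at PND2 for 41 members (9.11% of all features) and at least 2-fold above those at GD17.5 for 49 members (11.6%). For 39 members this held at both stages (7.65% of all features). The median log2 ratio of late Avp+ to early neurons was 0.96 at GD17.5 and 0.78 at PND2, against 0.08 and 0.15 over all features. Late Avp+ neurons were below early neurons at both stages for 2 members (31.5% of all features). The summed share of UMIs was 1.61% at GD17.5 and 1.68% at PND2, against 3.75% in late Avp+ neurons.

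In nuclei thinned to 1500 UMIs, the 100 features together contributed a median of 23 UMIs per early neuron at GD17.5 and 24 at PND2. Medians in Avp+ neurons were 46.5 and 52 UMIs at PND10 and 56 and 61 at PND30. Ranks 1 to 10 alone had a median of 1 UMI per early neuron at GD17.5, of 2 at PND2, and of 7, 8, 11 and 12 in the Avp+ neurons of the later libraries. For these counts 77 and 37 early nuclei and 4, 68, 2 and 106 Avp+ nuclei had under 1500 UMIs and were left out. The variance over the mean of the summed UMIs per nucleus was 2.05 and 2.03 in early neurons and between 4.77 and 7.59 in Avp+ neurons of PND10 and PND30, and without rank 1 it was still between 3.71 and 4.50 in the latter.

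At both early stages many Avp+-ranked features were higher in nuclei annotated as Vip+ than in early neurons, 79 of the 100 at GD17.5 and 80 at PND2, against 57.6% and 54.7% of all features. At GD17.5, where 236 nuclei were Vip+, 24 members were at least 2-fold higher in Vip+ neurons (5.42% of all features), 7 of them among ranks 1 to 10. No member was at least 2-fold higher in early neurons (3.15% of all features). At PND2, with 1262 Vip+ nuclei, the numbers were 11 members (4.25%) and 1 member (2.46%). Rank 1 measured 230 CPM in Vip+ neurons at GD17.5 and 441 CPM at PND2, above both values in early neurons. Rank 7 measured 81.0 and 80.0 CPM in Vip+ neurons, against 8.55 and 22.0 CPM in early neurons. In the later libraries rank 1 was between 91.6 and 168 CPM in Vip+ neurons, and rank 7 between 32.5 and 50.3 CPM. That both were lower there than in Avp+ neurons was set by the rule, which used these libraries. Clusters were defined by the authors on the same nuclei, and early neurons were not divided into Avp and Vip lineages, so these values describe annotated nuclei and not lineages.

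**Figure D3:**
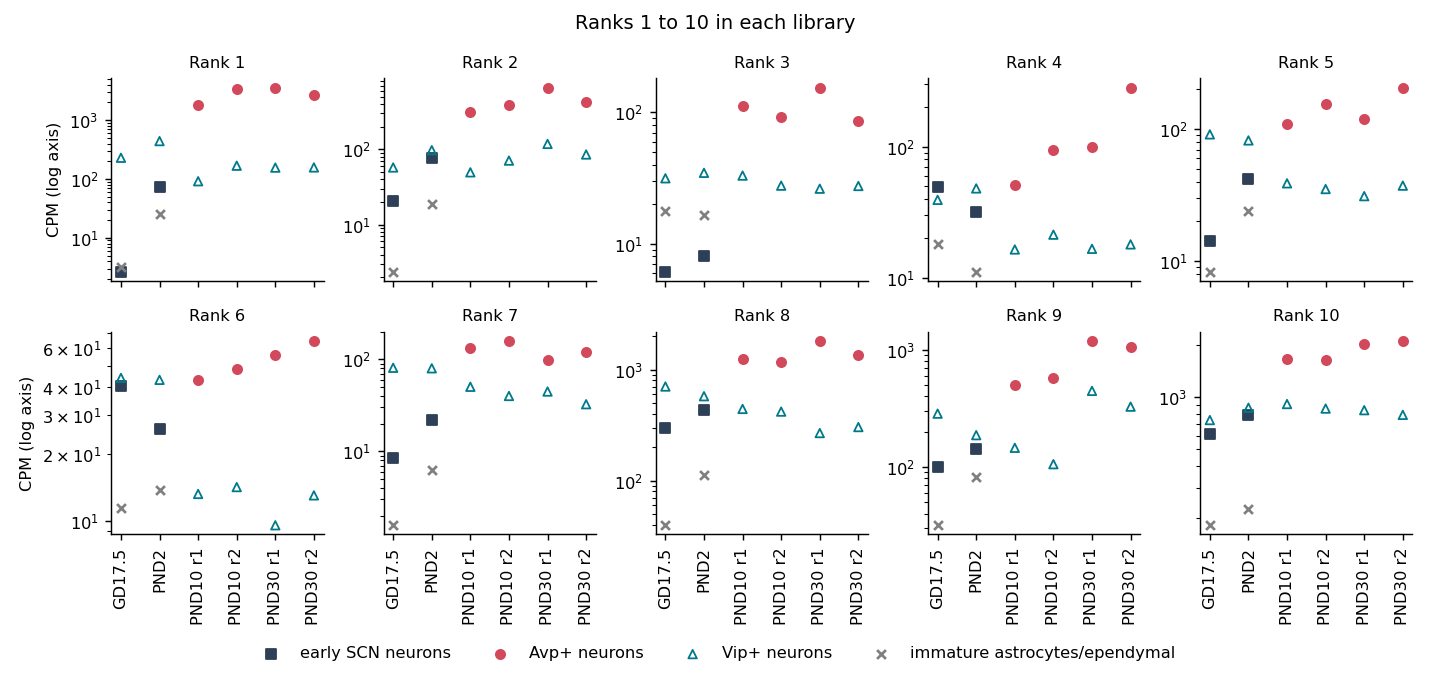
CPM (log axes, which differ between panels) of ranks 1 to 10 in each library, in early SCN neurons (squares), Avp+ neurons (circles), Vip+ neurons (triangles) and immature astrocytes/ependymal cells (crosses, early stages only); each point is the summed level of 1 library. At GD17.5 the triangles lie above the squares in all panels but that of rank 4. That the circles lie above the triangles at PND10 and PND30 was set by the rule, which chose features on these values.

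The 46 nuclei annotated as Avp+ at PND2 had higher levels of many members than early or Vip+ neurons. The authors placed them in 1 cluster with the later Avp+ nuclei on which the members were chosen. Higher levels of the members in them were therefore partly built in. The median depth of the 46 nuclei was 1487.5 UMIs, against 4891 for the library, with 182020 UMIs in all. In these nuclei 30 members were at least 2-fold above early neurons (6.65% of all features), including 8 of ranks 1 to 10, and 16 were at least 2-fold above Vip+ neurons (1.89%). Rank 1 had 1269 CPM there, from 231 UMIs, and 4 of the 46 nuclei held 50% of them. The 8 Avp+ nuclei of GD17.5 had 23574 UMIs, so 1 UMI was worth 42.4 CPM, and 18 members had 0 UMIs in them.

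The members were also compared with the glia of the same libraries. At GD17.5, 25 members were at least 2-fold higher in early neurons than in both immature astrocytes/ependymal cells and NG2 cells/OPCs (11.9% of all features), and at PND2 20 members were (9.36%). Among ranks 1 to 10, 6 and 4 passed this limit, and ranks 2, 7, 8 and 10 passed it at both stages. Rank 8 measured 299 CPM in early neurons at GD17.5, 39.6 CPM in immature astrocytes/ependymal cells and 57.5 CPM in NG2 cells/OPCs. Rank 10 measured 611 CPM, 181.9 CPM and 167 CPM in the same clusters.

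The libraries of PND10 and PND30 differed in how far they shared the order that chose the members. Within a single library, compared with the 6 to 8 other clusters that had at least 50000 UMIs there, 78 and 75 members at PND10 and 66 and 75 at PND30 were highest in Avp+ neurons. In all 4 libraries 31 members were highest (1.23% of all features), in 3 libraries 37 (3.71%), in 2 libraries 28 (6.60%), in 1 library 3 (14.0%), and in none 1 (74.5%), which was rank 70. The members were chosen on the pooled values of these libraries, so these counts describe how evenly the libraries share the order. Only rank 3 was at least 2-fold above every compared cluster in all 4, with ratios of 3.09, 2.08, 2.05 and 2.02. Nms+ neurons, its highest other cluster in the pooled values, had enough UMIs to be compared only in the second PND30 library. Cck+ neurons were compared in all libraries but the first at PND10. Rank 1 had ratios of 1.28, 1.74, 1.28 and 3.39, and rank 4 was highest in only 2 libraries, with 0.953, 1.65, 0.539 and 4.04.

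When a library was left out of the selection, the features chosen from the other 3 could be read in a library that had not chosen them. Such a reading is not independent, because the authors clustered the nuclei of all libraries together and the libraries of a stage may share animals. For lists chosen without 1 PND10 library, 73 of 100 features were highest in Avp+ neurons of the first library (14.4% of all features at 50 CPM or more) and 64 in the second (12%). For lists chosen without 1 PND30 library, 50 were highest in the first (8.08%) and 53 in the second (8.76%). These counts are not on equal terms, since the clusters compared differed between libraries. The first PND10 library had neither Cck+ nor Nms+ neurons among them, and only the second PND30 library had Nms+ neurons. These lists shared 84, 67, 80 and 50 features with the reported one. The smallest overlap, 50 features, was without the second PND30 library, which held most Cck+ and Nms+ nuclei. Leaving Cck+ and Nms+ neurons out of the comparison altogether, an alternative chosen after seeing the data, kept 28 of the 100 features.

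Levels of the members in Avp+ neurons also varied between the libraries. The highest of the 4 libraries was a median of 1.52-fold above the lowest for members and 1.32-fold over all features. It was under 1.5-fold for 48 members (71.5% of all features) and at least 2-fold for 19 (8.90%). Pearson's r of log2 CPM over the 100 features, which are not independent, was 0.981 between the PND10 libraries and 0.946 between the PND30 libraries, and between 0.889 and 0.944 across stages. Rank 4 measured 51.0 and 94.3 CPM at PND10 and 99.4 and 281 CPM at PND30. Ranks 24 and 32 lie in the matrix rows next to rank 4, and their highest value was also in the second PND30 library. Rank 24 measured 1150 and 1845 CPM at PND10 and 1692 and 3129 CPM at PND30, and rank 32 measured 44.5, 75.1, 70.2 and 190 CPM in the same order. For ranks 24 and 32 the stages overlapped, and for rank 4 both PND30 values were above both PND10 values. Of the 100 members, 7 lay next to another member, in 3 runs, the other 2 being ranks 40 and 83 and ranks 5 and 19. Of all 3909 features, a denser set of rows, 1174 lay next to another of that set. Whether rows in a run share reads was not tested.

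The number of members that changed in Avp+ neurons between PND10 and PND30 depended on the test and on single libraries. In edgeR's quasi-likelihood test, with p-values adjusted by Benjamini-Hochberg over all 14610 tested features, 2 of the 100 members had an adjusted p under 0.05 (0.089% of all features, or 13). At an unadjusted p under 0.05 there were 32 members (13.7% of all features). The stage contrast was not what chose the members, but the same Avp+ nuclei entered both. Rank 76 rose: it measured 61.9 and 57.9 CPM at PND10 and 171 and 153 CPM at PND30. Its log2 change was 1.495 ± 0.15 (SE, n = 2 and 2 libraries), with an adjusted p of 0.0477 by edgeR. Rank 23 fell from 320 and 308 CPM to 119 and 117 CPM. Its log2 change was -1.35 ± 0.14 (SE, n = 2 and 2 libraries), with an adjusted p of 0.0486 by edgeR. In both features the stages did not overlap. By edgeR 0 members were called without either PND10 library (12 had an unadjusted p under 0.05 without the first, against 7.55% of all features, and 11 without the second, against 8.57%). When the first PND30 library was left out 6 were called (0.996% of all features), and when the second was 8 (0.686%). DESeq2 called 11 members (1.45%) and edgeR without a filter on low counts 4 (0.230%). With the replicate number as a block edgeR called 16 members (4.64%).

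The change between these stages differed between Avp+ and Vip+ neurons for 3 members, as tested by the interaction of cluster and stage with the library as a block in edgeR (0.272% of all 14691 features tested, or 40). All 3 had a more positive change in Avp+ neurons. The Avp+ and Vip+ nuclei tested here also entered the ratio that chose the members, so the test is not independent of that choice. Rank 16 measured 52.7 and 103 CPM in Avp+ neurons at PND10 and 72.2 and 65.3 CPM at PND30, where the stages overlapped. In Vip+ neurons it measured 18.2 and 22.3 CPM at PND10 and 3.58 and 4.44 CPM at PND30, with no overlap. The Vip+ nuclei of the PND30 libraries held 1677700 and 3382051 UMIs in all, so these low levels of rank 16 rest on few UMIs. The difference in log2 change was 2.07 ± 0.33 (SE, n = 4 libraries), with an adjusted p of 0.0315 by edgeR. Rank 31 differed by 1.34 ± 0.19 (SE, n = 4 libraries), with an adjusted p of 0.0225 by edgeR. It measured between 105 and 151 CPM in Avp+ neurons, whereas in Vip+ neurons it measured 65.2 and 88.8 CPM at PND10 and 23.8 and 28.1 CPM at PND30. Rank 50 differed by 1.98 ± 0.33 (SE, n = 4 libraries), with an adjusted p of 0.0378 by edgeR. Its Avp+ values were 171 and 138 CPM at PND10 and 273 and 108 CPM at PND30, and its Vip+ values 23.9 and 33.7 CPM, then 10.7 and 7.69 CPM. For these 3 features the Vip+ values of PND30 were below those of PND10, while the Avp+ values overlapped between the stages. Again 0 members were called by edgeR without either PND10 library (28 and 23 had an unadjusted p under 0.05, against 6.96% and 7.99% of all features). It called 10 when the first PND30 library was left out (1.77%) and 14 when the second was (1.57%). With no filter on low counts 18 were called (1.26%), with the replicate number as a block 19 (2.76%), and DESeq2 called 2 (0.143%).

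**Figure D4:**
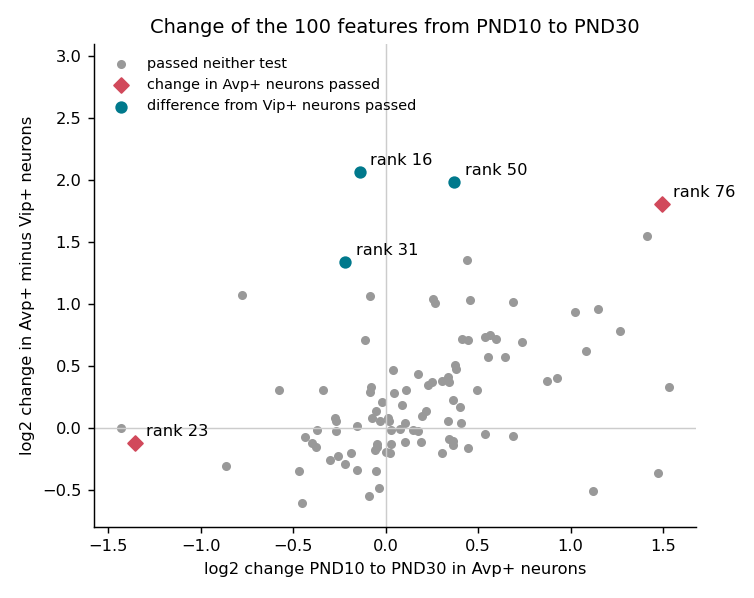
Log2 change of the 100 features from PND10 to PND30 in Avp+ neurons (x) and the difference of this change between Avp+ and Vip+ neurons (y), from edgeR. Diamonds mark the 2 features whose change in Avp+ neurons had an adjusted p under 0.05 and filled circles the 3 features whose difference had; ranks 16, 31 and 50 lie near 0 on the x axis or within its spread.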

How the data were processed

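Single-nucleus RNA-seq was made from pooled SCN tissue with a droplet 3' kit. The authors processed reads with Cell Ranger 5.0.1 on mm10 and deposited raw UMI counts per row and barcode, and they filtered, clustered and annotated nuclei in Seurat version 4, with doublets removed by their score. Annotated nuclei were placed by a barcode unique within their stage (22790 of 22796). Barcode suffixes were assigned to stages by their overlap with the barcode lists. From the deposited counts, UMIs were summed per library and cluster and expressed as CPM of the summed UMIs. Features were named by a rule: ranks 1 to 10, the 3 best ranks of each onset class, the 3 most abundant, the 3 largest and smallest ratios between the early stages, those called in a test, and the 3 ranks on either side of the limit. Ranks 14, 19, 24, 25, 34, 35, 40, 70 and 83 were named after their values were seen. The members and lists were chosen with earlier results of these data known.

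PND10 and PND30 were compared on counts summed per library with edgeR 4.0.16 in R 4.3.3 (filterByExpr, TMM, quasi-likelihood test, adjusted p under 0.05), and DESeq2 1.42.0 was an alternative. On simulated counts for 14610 features, 50% of changes of 1 on the log2 scale and 91% of changes of 2 were recovered for Avp+ neurons. For the interaction, 37% and 92% were recovered among 14691. False calls numbered 4 for Avp+ neurons and 3 for the interaction. Changes were put only into features above a minimum expected count, and each feature was given the spread typical of its level. Recovery in the real libraries may therefore differ. Stages with 1 library were not tested. For comparisons per nucleus, each nucleus was thinned to 1500 UMIs. Other alternatives were the CPM limits, the added CPM, the weighting of libraries and leaving out each library. Other analyses used Python 3.11.15, numpy 2.4.6, scipy 1.17.1 and matplotlib 3.10.9.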

Additional observations from a re-analysis of the deposited data

Results flagged for a closer look

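For 3 features the change from PND10 to PND30 differed between Avp+ and Vip+ neurons by edgeR's interaction test. The difference in log2 change was 2.07 for rank 16, 1.34 for rank 31 and 1.98 for rank 50, and each was lost without either PND10 library. Rank 1 was also counted in barcodes outside the annotation, which no comparison used. It measured 36.0 CPM there at GD17.5 and 179 CPM at PND2, against 12.7 and 150 CPM over the annotated nuclei of these libraries. In the PND10 libraries it measured 1525 and 1239 CPM outside the annotation, against 1046 and 1266 CPM inside. In the PND30 libraries it measured 1948 and 1142 CPM outside, against 1877 and 1015 CPM inside. The part of this RNA in the signal of rank 1 in early neurons and glia was not tested.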

How the results depend on the processing

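Of 91 alternative values for 8 results, 68 stayed within the limits set for a change, 23 moved and 0 reversed. Of the 100 features, 50 to 84 were kept without 1 library and 28 without Cck+ and Nms+ neurons among the other clusters, an alternative chosen after seeing the data, which also moved the median log2 ratio of PND2 to GD17.5 to 0.21. At a limit of 100 CPM, 42 members were present at GD17.5 and 43 at PND2, and at a limit of 20 CPM 88 and 91 were. Values over all features are not given for these limits, for the median of 0.21 or for the changed counts in the next 2 sentences. These values therefore show only how the members' results move. The 6 members at least 2-fold higher at PND2 became 3 with 20 CPM added. The 1 member at least 2-fold lower became 0 with 20 CPM added or a minimum of 100 CPM, 2 with 1 CPM added or without Cck+ and Nms+ neurons, and 1 to 2 without 1 library. Of tests between PND10 and PND30, the 2 members called in Avp+ neurons became 11 by DESeq2, 4 with no filter and 0 to 8 without 1 library. The 3 members called in the interaction became 18 with no filter and 0 to 14 without 1 library. With the replicate number as a block, 16 members were called in Avp+ neurons and 19 in the interaction. Deviations of same-numbered libraries correlated at 0.27 in Avp+ and 0.07 in Vip+ neurons, and the methods give the second libraries as a repeat of preparation and sequencing without saying whether those of both stages were repeated together. With 1 library each, GD17.5 and PND2 have no error beyond counting.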
